A study of Ovis aries with 5 samples.

Results

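The regions described here carry a histone mark of active chromatin and lie in parts of the sheep genome swept by selection in domestic sheep. They were taken from the joint lists of H3K4me3 and H3K27ac regions that were found in both replicates. A region was included when it shared at least 1 bp with one of 635 domestic sweep regions, which together spanned 23.1 Mb or 0.892% of the genome. This rule gave 652 regions of 51364 in all. Of these, 197 were H3K4me3 regions (1.22% of 16098, 95% Wilson interval 1.07 to 1.41%) and 455 were H3K27ac regions (1.29% of 35266, 1.18 to 1.41%). The intervals cover counting error only.

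The marks were mapped by ChIP-Seq in perirenal adipose tissue, the fat around the kidney, from wild type, untreated Merino fetuses at 132 days of gestation. Each of 2 fetuses gave 1 library of each mark, 4 libraries in all, and fetuses are called replicates 1 and 2 in what follows. All were compared with 1 input of pooled fetal nucleosomal DNA. Nuclei of the whole tissue were used, so a smaller share of a cell type and a weaker mark in each of its cells cannot be told apart. Of the brown adipose markers UCP1, CIDEA, PPARGC1A, PRDM16, PPARG, ADIPOQ and FABP4, only PPARGC1A was the closest gene of a sweep region, so the tissue could not be checked against the others here.

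H3K4me3 marks the start sites of genes that are active or poised, and the mark is usually narrow and strong. H3K27ac is laid down at active promoters and also at active enhancers, which can lie far from the gene they act on. An H3K27ac region that holds no H3K4me3 is therefore often read as an enhancer rather than a promoter. A selective sweep is a stretch of the genome that lost variation as a favoured haplotype spread, and it can hold many variants besides the favoured one. Fetal perirenal fat of the lamb is rich in brown adipocytes, which make heat at birth.

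After removal of duplicates the libraries held 92.9 M and 110 M (M, 1000000) H3K4me3 tags and 144 M and 146 M H3K27ac tags in replicates 1 and 2, against 26.7 M input tags. Values of a region are given as tags in its called peaks, or as tags per M of these totals. Tags that fell outside a called peak are not in the peak lists and count for nothing.

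A minority of the sweep regions held any active mark in this tissue. Of the 635 sweep regions, 268 held at least 1 H3K4me3 or H3K27ac region (42.2%, interval 38.4 to 46.1%) and 367 held none. Both marks were found in 106 sweep regions, H3K27ac alone in 137 and H3K4me3 alone in 25. An H3K27ac region without H3K4me3 was present in 190 sweep regions (29.9%, 26.5 to 33.6%). Of the sweep regions with a mark, 100 held 1 region, 72 held 2 regions and 49 held 3 regions. Only 26 sweep regions held 5 or more, and these had 177 regions among them. The 10 sweep regions with most regions held 92 (14.1%) of the 652 in 7.41% of the swept length.

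Longer sweep regions more often held a mark, but not more marks per length. Of 335 sweep regions of 20 kb, 124 held a region (37.0%), against 42 of 60 between 60 and 100 kb (70%) and 19 of 26 over 100 kb (73.1%). Per 100 kb of sweep there were 3.43 regions in those of 20 kb and 2.55 in those over 100 kb, a ratio which the 1 bp rule favours for short sweep regions. Of those over 100 kb, 7 were without any region in the joint lists. They included neighbouring sweep regions on chromosome 10 of 360 kb (chr10:37320001-37680000) and 200 kb (chr10:37740001-37940000), and those whose closest genes are FSIP2, GLIS3, SPAG16 and CALCB.

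H3K4me3 was found more often where a gene lay within the sweep region. It was present in 106 of the 317 sweep regions that hold a gene (33.4%, 28.5 to 38.8%) and in 25 of the 318 that do not (7.86%, 5.38 to 11.3%). For H3K27ac the counts were 159 (50.2%, 44.7 to 55.6%) and 84 (26.4%, 21.9 to 31.5%). Sweep regions with a gene were longer, with a median of 30 kb against 20 kb. Among those of 20 kb alone, H3K4me3 was present in 25.9% with a gene and 6.77% without, and H3K27ac in 44.1% and 25.5%. The gap was smaller for H3K27ac without H3K4me3, which was present in 44 of 143 sweep regions of 20 kb with a gene (30.8%, 23.8 to 38.8%) and in 42 of 192 without (21.9%, 16.6 to 28.2%). These last intervals overlap.

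**Figure D1:**
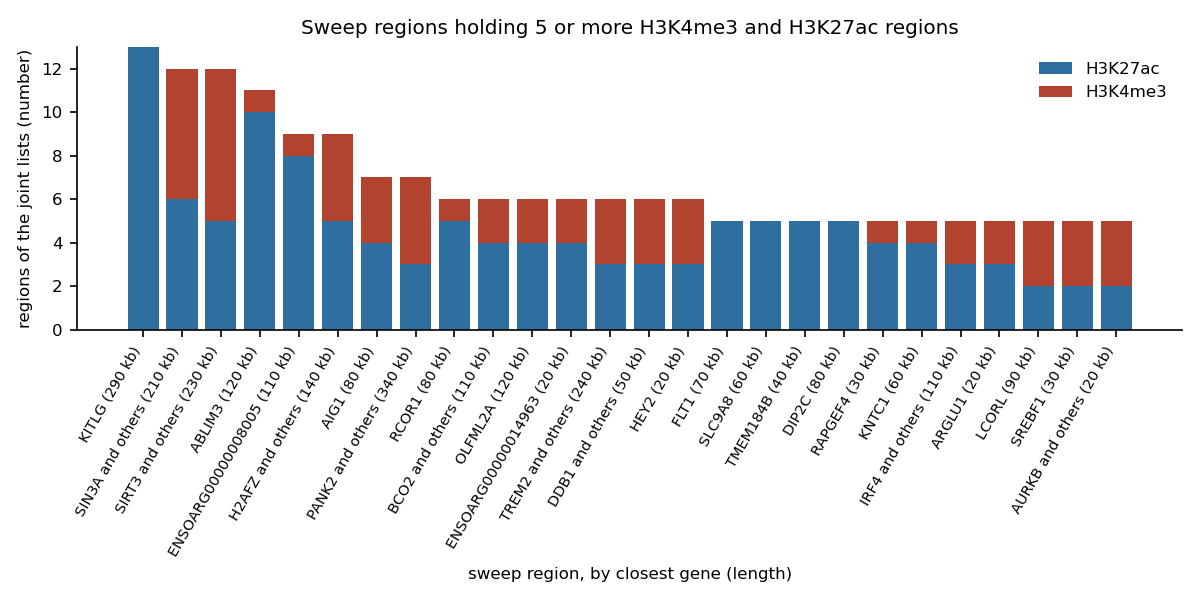
Number of H3K4me3 (red) and H3K27ac (blue) regions in each of the 26 sweep regions that held 5 or more, ordered by their number and named by a closest gene with the length of the sweep region. The sweep region near KITLG held 13 H3K27ac regions and no H3K4me3 region, while that of SIRT3 held 7 H3K4me3 and 5 H3K27ac regions.

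The sweep regions with most regions ranged from gene-rich ones with at least as many H3K4me3 as H3K27ac regions to ones in which nearly all regions were H3K27ac. The sweep region near KITLG (chr3:124790001-125080000), the gene of a ligand for the KIT receptor of pigment and mast cells, held 13 H3K27ac regions of 2857 to 11592 bp. These held 54.6 and 65.0 tags per M in replicates 1 and 2. The count depends on the library, with 14 regions from replicate 1 alone and 23 from replicate 2 alone. The order of the fullest sweep regions moved with the rule. By midpoint this sweep region and the 2 described next held 12 each, and at every FDR or from replicate 1 alone it held fewer than those 2 and that of ABLIM3.

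The sweep region at chr18:32200001-32410000 held 6 H3K4me3 and 6 H3K27ac regions. It spans NEIL1, a DNA repair glycosylase, COMMD4, SIN3A, the scaffold of a histone deacetylase corepressor, MAN2C1, a mannosidase, and PTPN9, a tyrosine phosphatase. Its H3K4me3 regions had 1976 to 4696 bp and together 42.7 and 52.2 tags per M, and its H3K27ac regions 28.0 and 29.3. The H3K4me3 region with most tags had 1091 in replicate 1 and 1521 in replicate 2 (chr18:32285000-32289695), and no H3K27ac region of the joint list met it. In replicate 1 alone, H3K27ac peaks of 455 and 273 tags within the FDR limit overlapped this H3K4me3 region. The longest H3K27ac region, of 13506 bp (2113 and 2309 tags), lay near 1 end of the sweep, away from the H3K4me3 region with most tags, and overlapped an H3K4me3 region of 924 and 1548 tags. Which of the 5 genes each region belongs to was not analysed here.

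The sweep region at chr21:49670001-49900000 held 7 H3K4me3 and 5 H3K27ac regions next to 16 genes. Among them are SIRT3, a mitochondrial deacetylase, PSMD13, a proteasome subunit, RIC8A, a chaperone of G protein alpha subunits, and NLRP6, an inflammasome sensor. The strongest H3K4me3 region (chr21:49868411-49873552) held 1574 and 1677 tags at 71.3-fold and 86.6-fold over input, and it carried H3K27ac (678 and 377 tags). Another H3K4me3 region (chr21:49709808-49717033) held 1136 tags in replicate 1 and 464 in replicate 2, or 12.2 and 4.23 per M, and overlapped H3K27me3 but not H3K27ac. All 5 H3K27ac regions had more tags per M in replicate 1, and 2 of them by more than 1.5-fold. Replicate 1 alone gave 22 regions of either mark here, and replicate 2 alone gave 12. With 25 H3K27me3 regions, this sweep region also held more of the repressive mark than any other.

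The sweep region of ABLIM3, an actin-binding LIM protein, was the one of at least 100 kb most covered by H3K27ac. Its 10 H3K27ac regions filled 68.2% of 120 kb (chr5:58020001-58140000), against 9.35% of all swept length. They held 93.7 and 85.6 tags per M, and 8 of the 10 carried no H3K4me3. The longest (chr5:58019483-58034636, 15154 bp) held 3556 and 3228 tags and overlapped the only H3K4me3 region, which had 1683 and 2895 tags over 9626 bp. Of the 10, 8 had more tags per M in replicate 1, none of them by more than 1.5-fold, and 1 of the others exceeded it in replicate 2.

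A comparable stretch lay at the gene ENSOARG00000008005 on chr9:25470001-25580000, where 8 H3K27ac regions filled 58.1% of 110 kb. Here the animals differed, and the regions span the merged peaks of both. The regions held 83.1 tags per M in replicate 1 and 47.7 in replicate 2, all 8 were higher in replicate 1, and 5 were so by more than 1.5-fold. The single H3K4me3 region of this sweep held 9.77 and 11.3 tags per M, while over all H3K4me3 regions the median ratio of replicate 2 to replicate 1 was 1.26. The remaining sweep regions of at least 100 kb (30 in all) were covered by H3K27ac for 20.3% of their length at most, the value near KITLG.

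**Figure D2:**
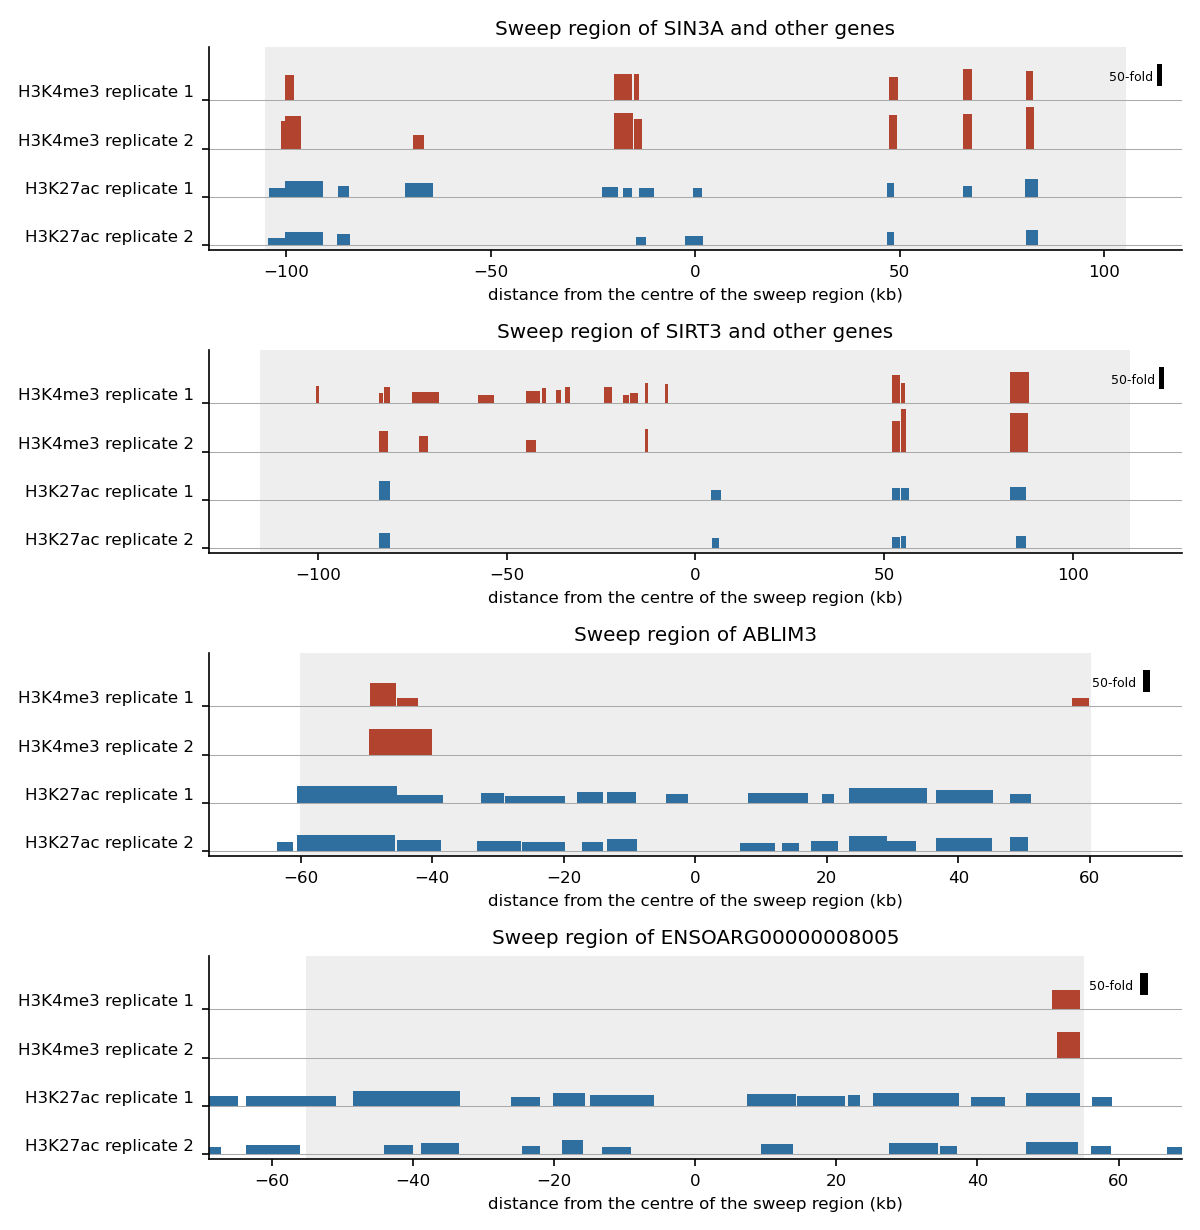
Called peaks within the FDR limits in 4 sweep regions (grey), with H3K4me3 in red and H3K27ac in blue, 1 line for each library, against the distance from the centre of the sweep region in kb. The height of a peak is its fold enrichment over input (scale bar 50-fold). The H3K27ac peaks of ABLIM3 run through most of the sweep in both replicates. Those of ENSOARG00000008005 do so in replicate 1 but leave wide gaps in replicate 2, and those of SIN3A and SIRT3 lie mainly at H3K4me3 peaks.

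At chr6:24710001-24850000, the sweep region of H2AFZ (the histone variant H2A.Z) and DNAJB14 (a chaperone of the endoplasmic reticulum) held 4 H3K4me3 and 5 H3K27ac regions. All 9 were under 5 kb, and their sums were 16.96 and 22.1 tags per M for H3K4me3 and 13.7 and 14.3 for H3K27ac. Near AIG1, a lipid hydrolase, 3 H3K4me3 and 4 H3K27ac regions lay in 80 kb (chr8:67320001-67400000), and H3K27ac held 44.5 and 45.5 tags per M. Near RCOR1, a subunit of the CoREST corepressor, 5 H3K27ac regions and 1 H3K4me3 region lay in 80 kb (chr18:66020001-66100000), and H3K27ac held 29.1 and 32.2. The sweep regions of PANK2 and of IL18, TEX12 and BCO2 held 7 and 6 regions (for PANK2, 11 from replicate 1 alone).

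Short sweep regions could be as dense. The 20 kb near HEY2, a transcription factor of the Notch pathway, held 3 regions of each mark (chr8:12600001-12620000), all of which carried the other mark. Their H3K27ac held 18.5 and 17.2 tags per M. The 20 kb near ENSOARG00000014963 held 2 H3K4me3 and 4 H3K27ac regions, and H3K27ac covered 70.6% of it. In all, H3K27ac covered more than 50% of 31 sweep regions. The cover reached 89.4% in the 20 kb of ZNF609, a zinc finger protein, through 1 region of 19390 bp with 3695 and 4057 tags.

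Among the H3K4me3 regions of highest enrichment over input were those at GLMN and RPAP2 (1019 and 2012 tags, mean 97.0-fold) and at CREB3L2, a transcription factor of the secretory pathway (1067 and 1991 tags, mean 96.0-fold). The longest H3K4me3 regions lay at ZFC3H1 and THAP2 (15096 bp) and at TSPAN13 (11958 bp). For H3K27ac, regions of high enrichment lay at KLHL20, a ubiquitin ligase adaptor (614 and 643 tags, mean 48.7-fold), and at ENSOARG00000014104 (613 and 661 tags, mean 48.5-fold). Among the longest were those at WFDC1 (25316 bp, 5339 and 3427 tags) and MAP3K8 (24404 bp).

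Peaks inside sweep regions were then set against those outside, in each library separately. H3K4me3 peaks differed little. Their median length was 2114 bp inside and 2137 bp outside in replicate 1, and 2399 and 2438 bp in replicate 2. Median tags per peak were 463 inside and 476 outside in replicate 1, but 725 and 696 in replicate 2, so the direction turned between the animals. Tags per kb of peak were 233 against 229 and 306 against 297.

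H3K27ac peaks inside were slightly longer and held more tags in both libraries. The median length was 4013 bp inside and 3767 bp outside in replicate 1, and 3866 and 3557 bp in replicate 2, which are ratios of 1.07 and 1.09. Median tags were 613 and 565 in replicate 1 and 562 and 526 in replicate 2, ratios of 1.08 and 1.07. Tags per kb did not move with them, at 151 and 150 in replicate 1 and 148 and 148 in replicate 2. The rule itself favours long regions, because a longer region meets a sweep more easily. When the midpoint had to lie inside, the mean ratios fell to 1.04 for length and 1.04 for tags. With 2 animals no exact test of the paired values can go below a two-sided p of 0.5, so none was made.

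**Figure D3:**
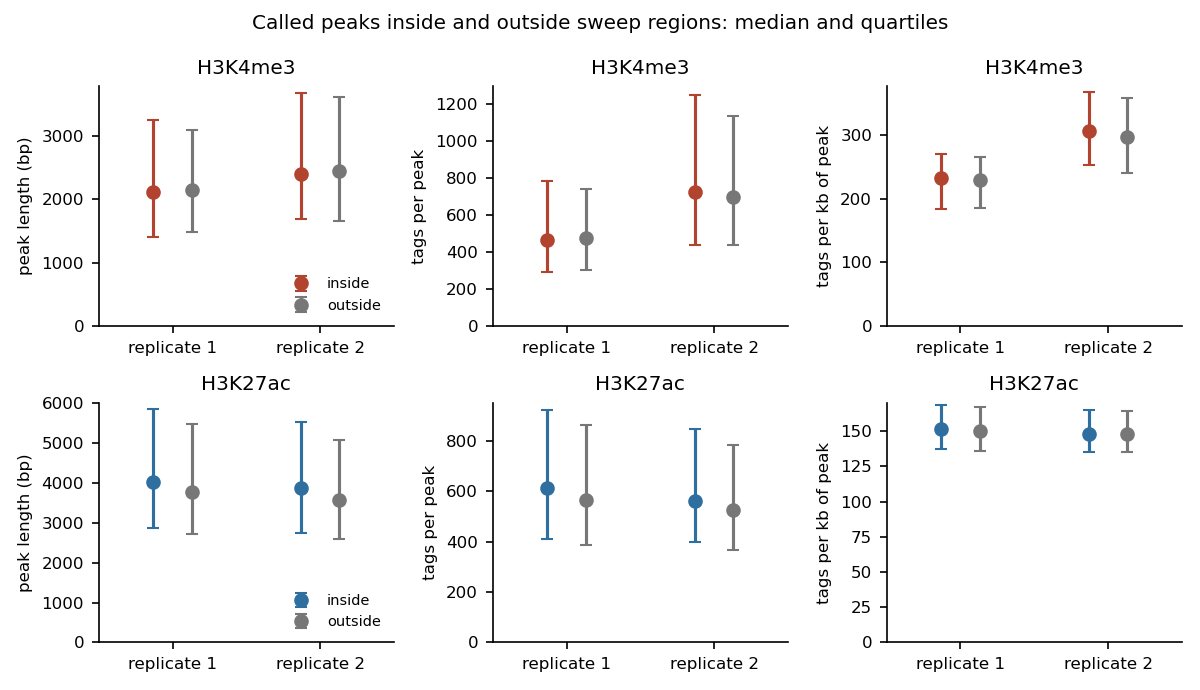
Length, tags and tags per kb of the called peaks that lie in regions of the joint lists, for each library, inside sweep regions (coloured) and outside (grey). Points are medians and bars span the quartiles, and the quartiles inside and outside overlap over most of their range in every panel.

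The marks met each other inside at shares near those of all regions. H3K27ac overlapped 120 of the 197 H3K4me3 regions (60.9%, 54.0 to 67.5%), against 55.2% of all H3K4me3 regions and 56.6% of those outside on the autosomes, where all sweep regions lie. Of the 455 H3K27ac regions, 127 overlapped H3K4me3 (27.9%, 24.0 to 32.2%), against 24.9% of all. The first interval holds the value for all H3K4me3 regions, and the second holds that for all H3K27ac regions. The remaining 328 H3K27ac regions had no H3K4me3.

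Fold enrichment over input was higher with the other mark, both inside and outside. H3K4me3 regions with H3K27ac had median fold enrichments of 56.5 and 79.8 in replicates 1 and 2, and those without had 50.1 and 61.2. Outside, the medians were 57.9 and 79.3 with H3K27ac, and 50.8 and 60.8 without. H3K27ac regions with H3K4me3 had 32.5-fold and 29.1-fold enrichment and those without had 25.2-fold and 24.8-fold. Outside, the values were 31.6 and 29.4 with H3K4me3, and 24.3 and 24.5 without. Median tags per M were also higher with the other mark, but at times by little. For H3K4me3 inside in replicate 1 they were 5.92 with and 5.80 without. Median H3K27ac length was 4932 bp with and 4678 bp without H3K4me3 inside, but 4209 and 4320 bp outside. The repressive mark H3K27me3 met 22 of the H3K4me3 regions (11.2%, 7.49 to 16.3%), against 12.9% outside on the autosomes and 16.3% of all. It met 11 of the H3K27ac regions (2.42%, 1.36 to 4.28%), against 1.77% outside on the autosomes and 2.61% of all. This interval holds both values.

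Regions in sweep regions differed between the 2 animals at shares near those of all regions. Each share was slightly above, but the gaps were not tested and have no intervals. For H3K4me3, 57 of the 197 regions had more than 1.5-fold more tags per M in replicate 2 (28.9%, against 27.4% of all H3K4me3 regions) and 7 had more than 1.5-fold fewer (3.55%, against 2.95%). The median ratio of replicate 2 to replicate 1 was 1.28, and 1.26 over all H3K4me3 regions. For H3K27ac, 34 of the 455 were higher in replicate 2 beyond 1.5-fold (7.47%, against 6.26% of all) and 75 were lower (16.5%, against 12.6%). Some of the 75 lay together, with 5 in the sweep region of ENSOARG00000008005 and 4 in that of TMEM184B. The H3K27ac median ratio was 0.949, and 0.952 over all. An alternative, added after the data were seen, took the ratio relative to the median ratio of all regions of the mark. By it, 23 H3K4me3 regions were higher in replicate 2 beyond 1.5-fold (11.7%, against 8.52% of all) and 23 lower (11.7%, against 10.8%). For H3K27ac, 44 were higher (9.67%, against 7.79%) and 62 lower (13.6%, against 10.5%). The Spearman rank correlation of the replicates, a description over regions of the same 2 libraries, was 0.842 for the 197 and 0.794 for the 455. Outside sweep regions it was 0.855 for H3K4me3 and 0.805 for H3K27ac.

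Some of the regions with the widest gaps, named after their values were seen, were H3K27ac regions with more tags in replicate 1. The region near MAP3K8, a kinase of the inflammatory response, held 4587 tags in replicate 1 and 218 in replicate 2, or 31.8 and 1.496 per M, a gap of 21.3-fold. In replicate 1 a single called peak ran for 24404 bp with 188 tags per kb. In replicate 2 the called peak was 1585 bp long with 138 tags per kb, so most of the gap lay in the length that was called. The neighbouring regions of this sweep showed no such gap, with 451 and 336 H3K27ac tags and 143 and 246 H3K4me3 tags.

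Gaps in the same direction were found near IRF8, a transcription factor of macrophages and B cells (924 and 198 tags) and at SREBF1, the master regulator of lipid synthesis (887 and 233 tags). The region near IRF8 (chr14:11404185-11410139) lay mostly outside its sweep region, which starts at 11410001 and does not hold the gene. The regions near IRF8 and at SREBF1 too had a shorter called peak in replicate 2, of 1558 bp near IRF8 against 5955 bp in replicate 1. For H3K4me3 the widest gap was 2.93-fold, at the sweep region of IL18, TEX12 and BCO2 (160 and 554 tags). The H3K4me3 region at the interferon-induced genes IFI44L and IFI44 held 792 and 2645 tags. No H3K4me3 region differed by more than 4-fold between the animals.

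**Figure D4:**
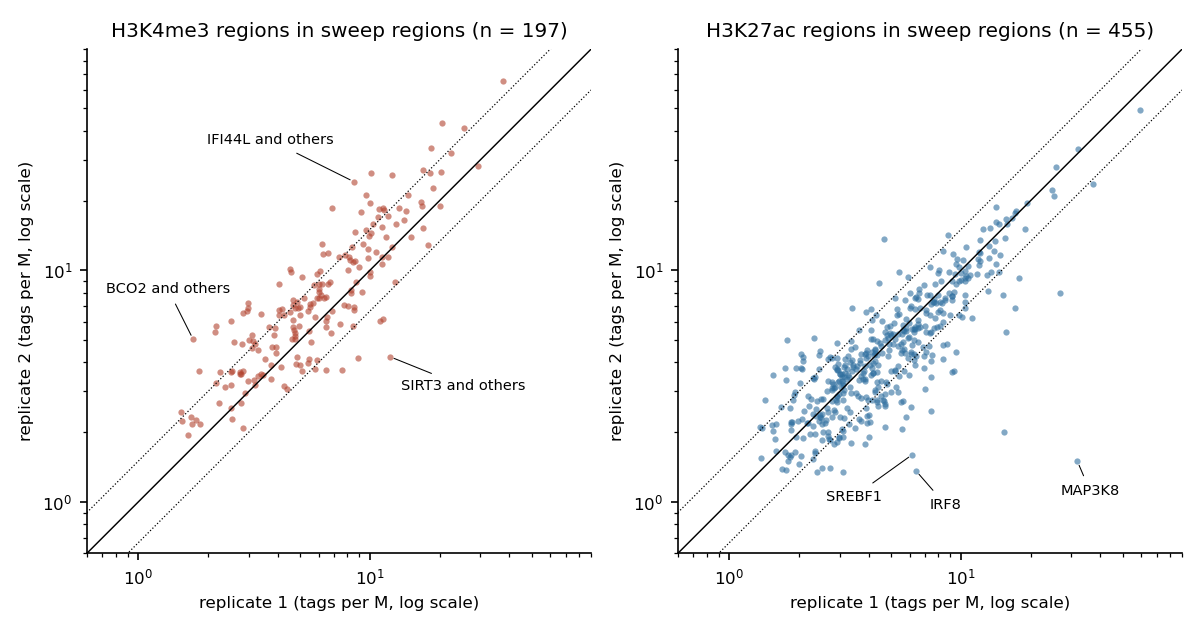
Tags per M of each H3K4me3 region (left) and H3K27ac region (right) in sweep regions in replicate 1 against replicate 2, both on log scales. The solid line marks equal values and the dotted lines 1.5-fold differences, and MAP3K8, IRF8 and SREBF1 fall far below the lower line for H3K27ac.

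The closest genes were grouped into 7 lists by function, with a gene standing for the sweep region it is closest to, which may hold other genes or not hold that gene. Each list was read against all sweep regions, of which 20.6% held H3K4me3, 38.3% held H3K27ac and 42.2% either. Those that hold a gene had H3K4me3 in 33.4% and H3K27ac in 50.2%, and those without a gene in 7.86% and 26.4%. The lists differ in how many of their sweep regions hold a gene and in length, and were not matched for either. Of 33 sweep regions of genes of fat and energy metabolism, 13 held H3K4me3 (39.4%), 13 held H3K27ac (39.4%) and 17 either. These included SREBF1, whose 30 kb held 3 H3K4me3 regions (24.4 and 18.2 tags per M) and 2 H3K27ac regions. The sweep region of COQ9, a factor of coenzyme Q synthesis, held 2 H3K4me3 regions of 622 and 972 tags and of 932 and 1039 tags. PRKAA1, a catalytic subunit of the energy sensor AMPK, held 1 H3K4me3 region (1043 and 1687 tags) and 2 H3K27ac regions. ELOVL1, a fatty acid elongase, held 2 H3K4me3 regions and 1 H3K27ac region (874 and 376 tags).

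In some sweep regions of this list H3K27ac was found without H3K4me3. At PPARGC1A, the coactivator that drives mitochondrial biogenesis in brown fat, 1 H3K27ac region (chr6:43246787-43251706) held 531 and 635 tags, or 3.69 and 4.36 per M, close to the medians of 4.44 and 4.15 over the 455. NAMPT, an enzyme of NAD synthesis, held 2 such regions, and the first had 255 tags in replicate 1 and 727 in replicate 2. Near TBC1D1, a regulator of glucose uptake, which lies outside its sweep region, was 1 region of 9978 bp with 1722 and 1741 tags. The sweep region of SDHA and that of LSS held 1 region of each mark, that of DGAT1 held 2 H3K4me3 regions, the 2 closest to MBOAT2 and that of CIDEB held H3K4me3 alone, and that of PDSS2 held H3K27ac alone. The sweep regions of COQ9, PRKAA1, ELOVL1, SDHA, LSS, DGAT1, CIDEB and 1 of those of MBOAT2 hold other genes too. The region at CIDEB shared 63 bp with its sweep region.

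Of 27 sweep regions of immune genes, 11 held H3K4me3 and 16 held H3K27ac (59.3%), and 19 held either. H3K27ac was higher in replicate 1 in 14 of these 16, against 145 of the 243 sweep regions with H3K27ac. By region, 26 of 31 were higher in replicate 1, against 269 of the 455 over all. Beyond 1.5-fold, 10 were higher in replicate 1 and 1 in replicate 2, against 75 and 34 of the 455. The median log2 ratio of replicate 2 to replicate 1 was -0.49, against -0.08 over the 455. Of the 26, 5 lay in the sweep region of SIRT3, which is on this list through NLRP6. The list of development and patterning also had H3K27ac higher in replicate 1, in 8 of 10 sweep regions (median log2 ratio -0.17). The counts were 11 of 16 for chromatin and transcription and 8 of 13 for fat and energy metabolism. For pigmentation, hair and skin they were 4 of 11, and for growth and body size 2 of 6. CD44, an adhesion receptor, held 3 H3K27ac regions with sums of 22.1 and 18.7 tags per M, IRF1 2 regions with 11.997 and 8.51, and the sweep region of IRF4 and DUSP22 3 regions with 15.4 and 10.6. H3K4me3 was higher in replicate 1 in 4 of the 11 sweep regions of the list that held it (36.4%), against 28 of 131 (21.4%) over all, and in 10 of 23 regions, against 46 of 197. The share of immune cells in the tissue of the 2 fetuses was not measured, and its part in these values was not tested.

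Genes of blood vessels showed H3K27ac in 6 of 13 sweep regions and H3K4me3 in 1. All 6 were higher in replicate 1, against 145 of the 243 over all, and so were 11 of their 12 regions, against 269 of the 455. The median log2 ratio of the 12 was -0.41, against -0.08 over the 455. FLT1, a receptor for VEGF, held 5 H3K27ac regions (28.2 and 21.4 tags per M in sum) and the 20 kb near KDR, the main VEGF receptor of endothelium, held 3 (13.7 and 10.2). ARHGEF15 held the H3K4me3 region, with 806 and 976 tags, and the integrin ITGA5 held an H3K27ac region of 1463 and 916 tags.

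In the list of pigmentation, hair and skin, 11 of 17 sweep regions held H3K27ac (64.7%) and 2 held H3K4me3. Its 29 H3K27ac regions included 27 without H3K4me3, and 15 of the 29 lay in the 2 sweep regions near KITLG. Their median log2 ratio was 0.21, with replicate 2 higher. The sweep region near KIT held 1 H3K27ac region with 12.4 and 15.03 tags per M, and that near GLI3 held 4. Of 13 sweep regions of growth and body size, 7 held a mark. HMGA2, an architectural chromatin protein, held an H3K4me3 region of 635 and 731 tags and an H3K27ac region of 1066 and 594 tags, which did not meet.

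Genes of chromatin and transcription held a mark in 18 of 27 sweep regions, and H3K27ac in 16 (59.3%). Besides SIN3A, H2AFZ and RCOR1 they included NFYA, next to the TREM genes, and HIPK2. Genes of development and patterning held a mark in 12 of 29, with H3K4me3 in 5 (17.2%) and H3K27ac in 10 (34.5%). The sweep region of SMAD6, an inhibitor of BMP signalling, held an H3K4me3 region of 1855 and 2085 tags. FRZB, a secreted Wnt antagonist, held an H3K4me3 region of 1043 and 1254 tags and an H3K27ac region of 808 and 399 tags. The lists share genes and sweep regions, and no list was tested.

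**Figure D5:**
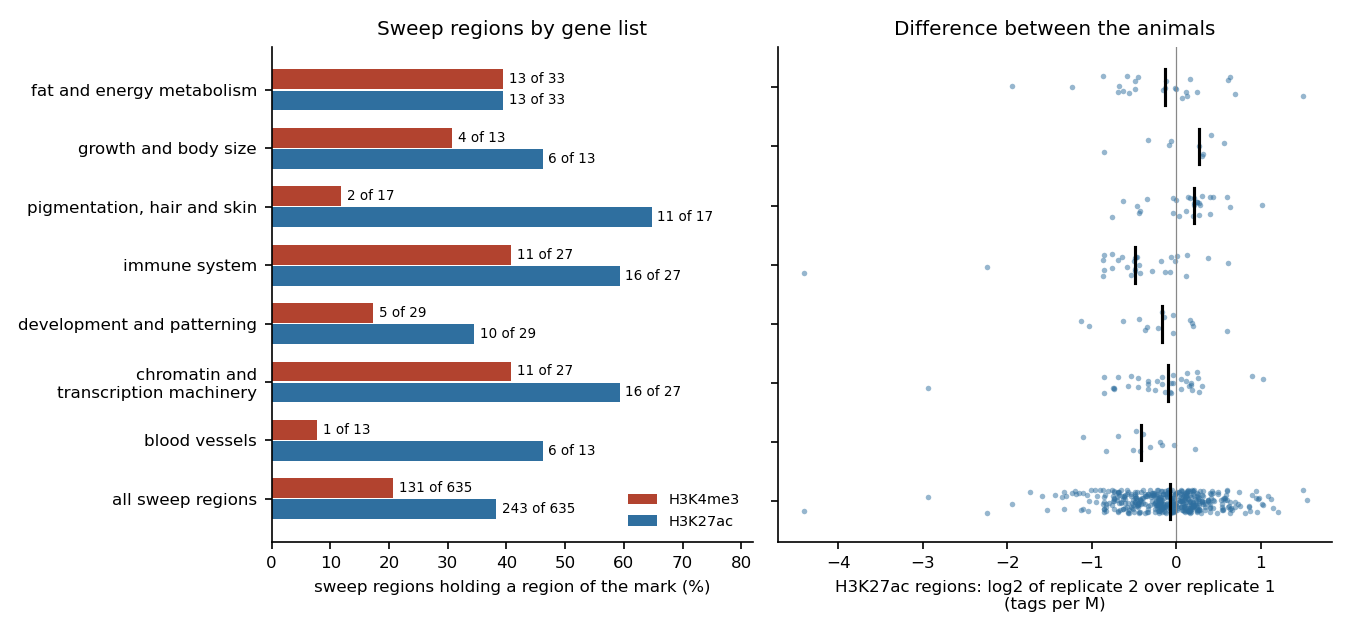
Share of the sweep regions of each gene list that held H3K4me3 (red) or H3K27ac (blue), with the counts (left), and the log2 ratio of replicate 2 to replicate 1 in tags per M for each H3K27ac region of the list, with the median as a black line (right). The medians of the immune and blood vessel lists lie at -0.49 and -0.41, and that of all 455 regions at -0.08.

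Of the sweep regions, 24 lie near 21 genes that other studies of domestic animals had linked to selection, as listed by the authors. A mark was held by 18 of the 24 (75%, against 42.2% of all sweep regions), H3K4me3 by 8 (20.6% of all) and H3K27ac by 15 (38.3% of all). Several of these are among the long sweep regions, which held a mark more often, such as those of 340 kb at PANK2, 290 kb near KITLG and 150 kb at IGF2BP2. Others were of 20 kb, some with a mark (as near KIT and SOCS2) and some without (as near HAND2 and SOX2). The part of length in the share was not tested. Besides those named above, the sweep region of IGF2BP2 held 2 H3K27ac regions, and those of ESR1 and ITCH 1 each. That of PLAG1 held 2 H3K4me3 regions and 1 H3K27ac region, and that of TCHH 1 H3K4me3 region. The sweep regions near TBX3 and MEF2C held 1 H3K27ac region each and that near SOCS2 1 H3K4me3 region, but these 3 do not hold the gene itself. The 6 without a region in the joint lists lay near GLI2, HAND2, VEGFA, SOX2, GPRIN3 and, for 1 of its 2 sweep regions, LCORL. By chromosome, sweep regions of chromosome 3 held most regions, 76 in 2.7 Mb, while those of chromosome 8 held 38 in 0.66 Mb and those of chromosome 24 held 7 in 0.43 Mb. No sweep region lay on the X chromosome.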

How the data were processed

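Reads of the 4 libraries were mapped by the authors to the Oar_v3.1 assembly, and MACS 1.4.2 (per the file headers and the submitters' processing notes) called the peaks of each library against 1 input. For each peak the deposited files give its position, a count of tags, a score that is -10 times the log10 p-value, the fold enrichment over input as a ratio, and the FDR in percent. The deposited joint lists hold positions. Overlapping replicate peaks, once merged, gave them at FDR limits of 1% for H3K4me3 (16098 of 16098) and 10% for H3K27ac (35265 of 35266). The H3K27me3 joint list was used for overlaps, and 2 files of H3K27me3 peaks that no sample in the labels stands for were not used.

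Sweep regions and their closest genes came from the study's supplementary data. Tags were summed over all called peaks that overlapped a joint region, at any FDR, and divided by the tags after removal of duplicates, as tags per M (1000000). Fragment sizes in the headers were 124 and 120 bp for H3K4me3 and 200 bp for H3K27ac. Inside and outside peaks were compared by medians, and replicates were called different beyond 1.5-fold. No p-values were computed. Of 701 closest genes, 560 had a symbol (518 of them in RefSeq) and 141 only an identifier. No sequence is given, because no genome of this build was used here.

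The regions, the gene lists and the tests were chosen with earlier results of these data known. Genes named are the closest to the 10 sweep regions with most regions, to the 3 regions of highest mean fold enrichment and the 3 longest of each mark, to up to 4 sweep regions of each list, to all fat and energy sweep regions with a mark, and to sweep regions of genes that other studies of domestic animals had linked to selection. Others are said to be named after their values were seen, or are given to show sweep regions with dense or no marks. A few regions that met this rule are not reported here. Alternatives covered the overlap rule, the FDR limit, 1 library alone, autosomes, nearby regions and the 10 fullest sweep regions. The overlap code was tested on simulated data and found 300 of 300 regions placed inside and 0 of 300 placed outside. Replicates are 1 animal each, and depth sets which weak peaks were called. The code ran in Python 3.11.15 with matplotlib 3.10.9, scipy 1.17.1, pandas 2.3.3 and numpy 2.4.6.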

Additional observations from a re-analysis of the deposited data

Results flagged for a closer look

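Some signal in sweep regions lay outside the joint lists. For H3K27ac, 31 regions with peaks in both replicates lay in sweep regions but not in the joint list, because 1 or both peaks had an FDR above 10%. They were not weak, with medians of 1385 and 1464 tags in replicates 1 and 2 and 36.8-fold and 38.1-fold enrichment, and 14 of them overlapped a joint H3K4me3 region. Among them was a region at SIAH1, a ubiquitin ligase (2015 and 1923 tags, FDR of 95.3 and 81.4%). For H3K4me3, 196 such regions had an FDR above 1% in 1 or both replicates, with medians of 163 and 216 tags. The joint H3K27me3 list had 164 regions in 71 sweep regions, of which 41 also held an active mark. The sweep region of SIRT3 held 25 of them, that of UNCX, a homeobox gene, 13 with no active mark, and that of NR5A2, a nuclear receptor, 8. Input of pooled DNA was the only control, and the per-library H3K27me3 values were not used.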

How the results depend on the processing

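Of 117 recomputed values that answer a comparison, 98 stayed within 1.5 times a count, 1 SD between replicates for a ratio, or the interval of a share. At every FDR, H3K4me3 regions in sweep regions rose in number from 197 to 394 and the sweep regions that hold one from 131 to 212. The H3K4me3 ratios of inside to outside were 0.986 for length, 1.01 for tags and 1.02 for tags per kb as means of both libraries. They moved to 1.03, 1.09 and 1.08 at every FDR, while length was 0.998 for autosomes alone and also 0.999 within 500 kb of a sweep region, 0.969 by midpoint, 0.991 with tags summed per region and 1.00 for peaks within the FDR limit (added after the data were seen), and tags per kb were 1.01 for autosomes. For H3K27ac, length (1.08) became 1.04 by midpoint and 1.10 with tags summed per region, and tags (1.08) became 1.06 within 500 kb of a sweep region, 1.04 by midpoint and 1.10 summed per region. The share of H3K4me3 regions with H3K27ac (60.9%) was 48.7% at every FDR, and that of H3K27ac regions with H3K4me3 (27.9%) was 42.6% at every FDR and 16.5% when the other mark had to cover 50%. From 1 library alone, 225 to 271 H3K4me3 and 568 to 614 H3K27ac regions were counted, in 145 to 156 and 263 to 271 sweep regions. The ratios then ranged from 0.984 to 0.989 for H3K4me3 length, 0.973 to 1.04 for tags and 1.02 to 1.03 for tags per kb. For H3K27ac they ranged from 1.07 to 1.09, 1.07 to 1.08 and 1.00 to 1.01. Near KITLG, replicate 2 alone gave 23 regions, and at SIRT3 and PANK2 replicate 1 alone gave 22 and 11. At SIRT3 every FDR gave 20. Relative to the median ratio of all regions (added later too), 46 H3K4me3 and 106 H3K27ac regions differed between the animals beyond 1.5-fold, against 64 and 109.

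No paired analysis was possible because no groups of samples were compared in a test. Inside and outside values of a library were compared within it, and the marks were not tested against each other. Only 2 animals were compared, the input was the shallowest library, and tags outside called peaks were not counted, so a gap between animals includes what the caller left out. The cause of the shifts was not tested.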
